A study of Mus musculus with 2 samples.

Results

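The adult globin genes were followed across the liver cells of 2 mice. The listed genes were picked by symbol, and 4 of the 5 on the list were in the deposited table of 26078 genes: Hba-a1 and Hba-a2, which encode the alpha chain, and Hbb-bs and Hbb-bt, which encode the beta chain. The fifth was not analysed here. Non-parenchymal liver cells of untreated male mice aged 8 to 10 weeks had been pulled out by F4/80, an antigen that mouse macrophages carry, and loaded into droplets for a target of 10000 cells per mouse. One mouse was Spta sph/sph and the other Spta wt/wt, with 1 mouse per genotype, and the strain is not given in the sources used here. The study's title is about the effect of erythrophagocytosis, the eating of red cells, on liver macrophages. Spta names the alpha chain of spectrin, a protein of the red cell membrane skeleton, and mice homozygous for sph are known for fragile, round red cells that are cleared early.

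Adult hemoglobin is a tetramer of alpha and beta chains, each holding a heme. Erythroid precursors make both chains in large amounts while their nucleus condenses, and the last steps run on stored RNA after the nucleus is lost. Free alpha chains are unstable and harm the cell, so the output of both loci is kept close and the excess is degraded. In the liver, Kupffer cells, the resident macrophages, take up aged red cells, and erythroid precursors can mature on macrophages.

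All 4 are protein-coding genes, placed here on GRCm38 by GENCODE M21. Hba-a1 (ENSMUSG00000069919) lies on chromosome 11 from 32283511 to 32284465 on the forward strand. Hba-a2 (ENSMUSG00000069917) lies on the same chromosome and strand, from 32296489 to 32297298. Hbb-bs (ENSMUSG00000052305) lies on chromosome 7 from 103826534 to 103828096 on the reverse strand. Hbb-bt (ENSMUSG00000073940) lies next to it on the same strand, from 103812524 to 103813996.

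The 120 bases before the RefSeq start of each gene are shown because the 4 genes moved together across the cells described next; each is read 5′ to 3′ on the gene's strand from RefSeq on GRCm38.p6. The RefSeq starts differ from the GENCODE ends given above. The windows of Hba-a1 and Hbb-bs therefore lie inside the GENCODE spans, and those of Hba-a2 and Hbb-bt overlap theirs in part. Capitals mark 3 motifs known from globin promoters: the letters CACCC, then the letters CCAAT, and last the letters TATAA. Both strands were searched, so ATTGG in capitals marks the second motif on the other strand, and where it touches its forward copy in Hbb-bt the matches do not overlap.
Hba-a1, chr11:32283552-32283671, forward: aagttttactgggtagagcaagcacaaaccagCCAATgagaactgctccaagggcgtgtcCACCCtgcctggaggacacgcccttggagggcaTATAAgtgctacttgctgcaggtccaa
Hba-a2, chr11:32296372-32296491, forward: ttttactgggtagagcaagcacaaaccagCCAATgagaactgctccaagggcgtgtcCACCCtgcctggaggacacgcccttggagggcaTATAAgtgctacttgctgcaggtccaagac
Hbb-bs, chr7:103827929-103828048, reverse: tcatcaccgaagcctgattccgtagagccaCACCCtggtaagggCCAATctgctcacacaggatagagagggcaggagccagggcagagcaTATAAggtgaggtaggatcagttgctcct
Hbb-bt, chr7:103813924-103814043, reverse: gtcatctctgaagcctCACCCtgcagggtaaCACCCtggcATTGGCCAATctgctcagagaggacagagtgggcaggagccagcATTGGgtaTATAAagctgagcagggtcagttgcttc

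All 4 windows held each of these motifs. Among 32851 RefSeq promoters of the same length, 31.7% held CACCC, 21.3% held CCAAT and 11.8% held TATAA. One further motif, GATAA, was in 10.5% of all promoters and in none of these windows. In the order along the strand the families differed: CCAAT came before CACCC in the alpha genes and after it in the beta genes. TATAA ended between 23 and 26 bases before the start in all 4. The promoters of the alpha pair, compared over 250 bases, aligned over 247 with 0 mismatches, whereas those of the beta pair had 65 mismatches over 243 aligned bases.

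The alpha pair was also nearly the same in its transcripts, which limits how far the counts can be split between copies. The coding sequences of 429 bases differed at 1 base, C381T (Hba-a1 base, position counted from the A of the start codon, Hba-a2 base), shown in capitals.
Hba-a1: gcatgcctctctggaCaaattccttgcctc
Hba-a2: gcatgcctctctggaTaaattccttgcctc
After the stop codon, the 74 bases that both transcripts share in the annotation had 0 mismatches, and Hba-a2 is annotated 16 bases longer. The beta pair differed at 1 of 444 coding bases, C417T (Hbb-bs base first), but at 36 of the 129 aligned bases after the stop codon, where reads from the 3′ end of transcripts fall. The split within the alpha pair is therefore uncertain, and values of Hba-a1 and Hba-a2 are given below as counted. How reads that match both copies were counted is not given in the sources used here.

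The table held whole-number counts of unique molecular identifiers (UMIs, each standing for 1 captured transcript), and the ending of each cell barcode split it into library 2 with 9726 barcodes and library 1 with 8907. The labels do not say which ending belongs to which mouse, and neither library is given a genotype here. With 1 library per mouse, no test was run between libraries or groups of cells. Intervals are exact, at the 95% level. Those of UMI levels and ratios cover counting error only. Those of medians and of shares of barcodes treat the barcodes of 1 library as independent draws. None covers differences between mice. Asking for 200 or more genes and no more than 20% mitochondrial UMIs kept 6942 barcodes of library 2 with a median of 4596.5 UMIs and 3488 of library 1 with a median of 2848.

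Most of the globin counted in library 1 stood on barcodes that also occur in library 2. A total of 955 barcode sequences occurred in both, and 886 of those had over 5 times fewer UMIs in library 1. Of the 815 of these that were kept, the median had 3.87% as many UMIs in library 1 as its partner in library 2 (5th to 95th percentile 3.32% to 4.48%). They held 74.3% of the globin UMIs of the kept barcodes of library 1. All but 1 of the 137 erythroid-like barcodes of library 1 were among them, and 132 of those 136 had an erythroid-like partner in library 2. Values of library 1 are given with and without these shared barcodes, and erythroid maturation is described from library 2.

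Barcodes were assigned to a lineage from marker genes other than the globins, as Kupffer-like, endothelial-like and so on. In library 2 and library 1, the Kupffer-like barcodes numbered 4025 and 2171, and the erythroid-like 844 and 137. Barcodes that met more than 1 marker set were called mixed (358 and 73), and 246 of the mixed barcodes of library 2 met the Kupffer and erythroid sets together. A further 1114 and 580 met none. The leading genes of the erythroid-like barcodes of library 2 held 7 listed erythroid markers among 10, and also Car2, which encodes a carbonic anhydrase of red cells. Clec4f, Vsig4, Folr2 and C1qb were among the leading genes of the Kupffer-like barcodes. Thresholds were set after the values had been seen. In library 2, 93 of the 1108 barcodes that met the erythroid set, mixed ones included, lay within 1.5-fold of its minimum, and 1101 of the 4348 that met the Kupffer set.

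Adult globin RNA made up 11.9% of the kept UMIs of library 2 (5456459 UMIs) and 0.414% of those of library 1 (58513 UMIs). In library 2 this was 1936369 UMIs of Hba-a1, 497007 of Hba-a2, 2410873 of Hbb-bs and 612210 of Hbb-bt. In library 1 it was 19302 of Hba-a1, 4888 of Hba-a2, 28254 of Hbb-bs and 6069 of Hbb-bt.

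Erythroid-like barcodes of library 2 were divided into 5 ranges by the share of late markers among their early, middle and late marker UMIs, with cuts at 25%, 50%, 75% and 90%. The globins took no part in this score, and 152 of the 844 barcodes lay within 2 percentage points of a cut, so these are ranges and not cell types. Proliferation genes, which the score did not use, had a median of 24.7, 43.0, 77.2, 13.3 and 0 UMIs per 10000 UMIs outside the globin and mitochondrial genes from range 1 to range 5. The median UMI total per barcode was 24634, 12714, 7523, 5074 and 3777. Kupffer markers moved the other way, with medians of 6.89, 13.9, 41.2, 72.7 and 125 UMIs per 10000, against 271 in Kupffer-like barcodes. Their part in the globin values was not tested.

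The globins went from a minor to the main RNA over these ranges. The median barcode held 1.31% globin UMIs in range 1 (n = 74), 12.4% in range 2 (n = 236), 45.4% in range 3 (n = 265), 60.2% in range 4 (n = 131) and 70.02% in range 5 (n = 138). The intervals of these medians did not overlap between neighbouring ranges. The spread within a range was wide: the 5th to 95th percentile ran from 0.199% to 6.70% in range 1 and from 35.7% to 85.7% in range 5. Globin UMIs per barcode had medians of 163.5, 1420, 3223, 2957 and 2750.5, so the median number was highest in range 3, whereas the 95th percentile was 8302 UMIs in range 3 and 12224 in range 5.

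**Figure D1:**
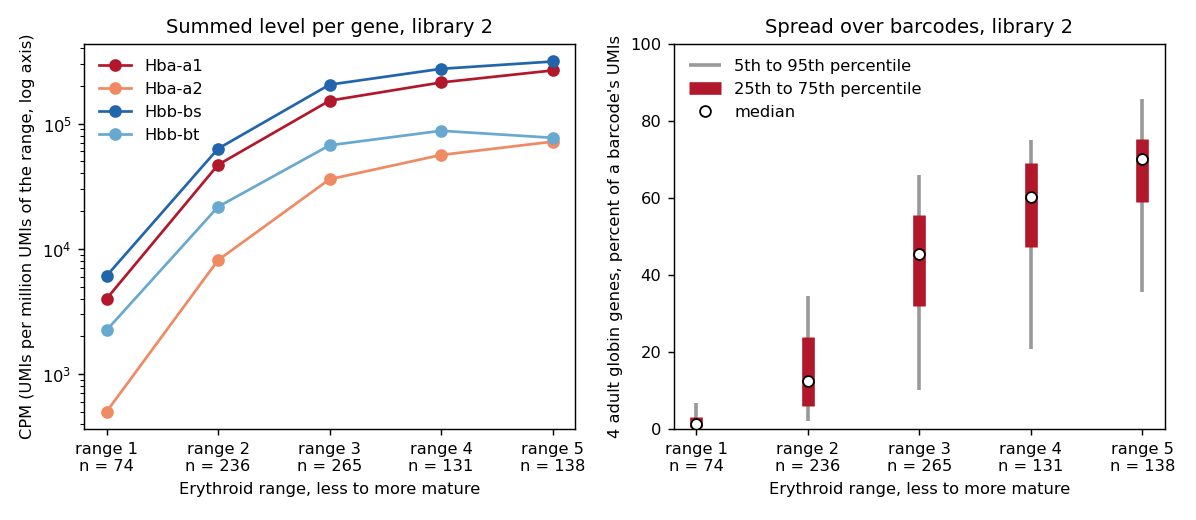
Left, summed level of each globin gene in CPM (counts per 1000000 UMIs, log axis) in the 5 erythroid ranges of library 2; right, the 4 genes together as percent of each barcode's UMIs, with the median (circle), the 25th to 75th percentile (thick bar) and the 5th to 95th percentile (thin bar). The median goes from 1.31% in range 1 to 70.02% in range 5, and Hba-a2 starts lowest and has the steepest line.

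Summed over barcodes, Hbb-bs had 6076, 63081, 204694, 273931 and 313386 CPM (UMIs per 1000000 UMIs of the range) from range 1 to range 5. Hba-a1 had 3988, 46899, 152496, 213172 and 265873 CPM. Both were higher in each range than in the one before it. Hbb-bt had 2236, 21649, 67126, 87672 and 77066 CPM and was the only one of the 4 with a lower level in range 5 than in range 4. Hba-a2 had 499, 8117, 35933, 56166 and 71746 CPM, the lowest of the 4 in every range. The alpha pair summed, which does not depend on that split, had 4488, 55016, 188429, 269338 and 337619 CPM.

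Set as range 5 over range 1, the log2 ratio was 7.17 for Hba-a2, 6.06 for Hba-a1, 5.69 for Hbb-bs and 5.11 for Hbb-bt. All 4 were at least 2-fold higher with an interval that excludes 1, as were 4.52% of the 3210 genes with enough UMIs, while 87.9% were at least 2-fold lower and the median of all was -3.39. Hba-a2 ranked 1, Hba-a1 9, Hbb-bs 12 and Hbb-bt 14 among these genes. Because the globins came to fill most of the UMIs, every other gene is lowered on this scale. Per UMI outside the globin and mitochondrial genes, the log2 ratio of the summed globins was 8.14, against 5.83 on the CPM scale. Ranges built without Slc4a1 and Alas2 among the late markers gave 4.64 on the CPM scale, and a stricter lineage rule gave 5.23.

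The balance of the chains also moved over the ranges. Alpha UMIs per beta UMI were 0.540 (0.525 to 0.555) in range 1, 0.649 in range 2, 0.693 in range 3, 0.745 in range 4 and 0.865 (0.860 to 0.869) in range 5. Each range was above the one before it, and no intervals overlapped. Over single barcodes with at least 100 globin UMIs, the median ratio was 0.571 in range 1 (48 barcodes) and 0.835 in range 5 (136 barcodes), with 25th to 75th percentiles of 0.373 to 0.707 and 0.734 to 0.988. Barcodes of 1 range differed more than counting alone gives, with a chi-square per degree of freedom of 13.7 in range 2 and 39.1 in range 5. The ratio compares groups and is not a count of chains, since how well each transcript was captured and counted is unknown.

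The copies within each pair changed as well. Hbb-bs per Hbb-bt UMI, the pair that can be told apart after the stop codon, was 2.72, 2.91, 3.05, 3.12 and 4.07 from range 1 to range 5. The step from range 4 (3.10 to 3.15) to range 5 (4.03 to 4.10) was larger than the steps among the first 4. Hba-a1 per Hba-a2 UMI moved the other way, at 7.99, 5.78, 4.24, 3.80 and 3.71, with the caution on this pair given above.

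**Figure D2:**
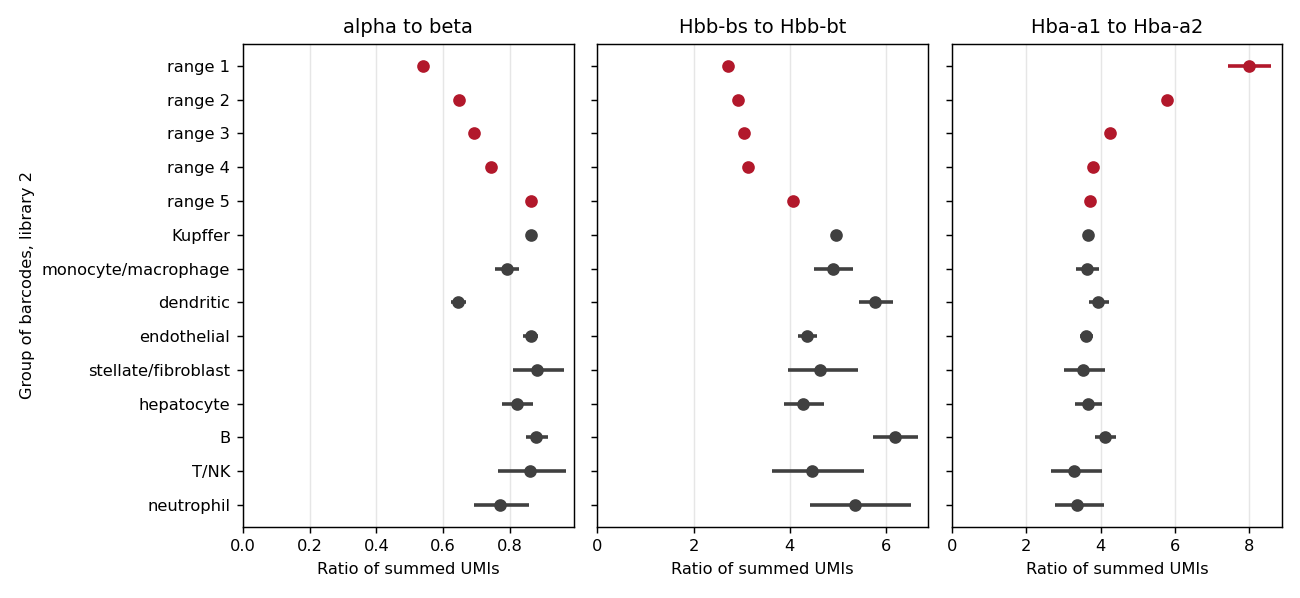
Ratios of summed UMIs in library 2, alpha to beta, Hbb-bs to Hbb-bt and Hba-a1 to Hba-a2, in the 5 erythroid ranges (red) and in 9 other marker-gated lineages (grey), with exact 95% intervals (bars hidden by the point where narrow). Alpha to beta climbs from 0.540 to 0.865 over the ranges, and Hbb-bs to Hbb-bt is at least 4.27 in all 9 other lineages.

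The other globin genes had far fewer UMIs. Of 11 other globin genes listed, 9 were in the table. The embryonic genes Hba-x, Hbb-y and Hbb-bh1, which serve the yolk sac red cells, had 2, 6 and 13 UMIs over all kept barcodes of library 2 and 0 in library 1. Hbb-bh2 and Mb, the myoglobin of muscle, had 0 UMIs in both. Hbq1b, a theta globin gene of the alpha locus, had 723 UMIs in library 2 and 21 in library 1, and in library 2 its level was 3.66, 57.7, 146, 95.7 and 32.3 CPM from range 1 to range 5. Hbq1a had 183 UMIs in library 2 and 4 in library 1. Cygb, the cytoglobin of stellate cells and fibroblasts, had 286 and 153. None reached the 50 CPM and 30 UMIs in either of ranges 1 and 5 that the comparison asked for.

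Of 12 listed regulators of globin transcription, 11 could be compared between range 5 and range 1, and 10 were lower, 0 higher and 1 within 2-fold, beside a background of 87.9% lower. Their median log2 ratio was -3.90 and that of all genes -3.39. These calls and the background are on the CPM scale. Per UMI outside the globin and mitochondrial genes, the log2 ratio was positive for Klf3 (0.34), Lmo2 (0.49), Sox6 (1.11) and Nfe2 (2.96). It was negative for Klf1 (-3.61), Gata1 (-2.79), Zfpm1 (-1.76), Tal1 (-1.70), Bcl11a (-3.73) and Zbtb7a (-0.42). Myb had no UMIs in range 5. Klf1, the activator of the adult beta gene, had 326, 421, 412, 98.7 and 5.38 CPM from range 1 to range 5. Gata1, the master factor of the lineage, had 185, 188, 166, 49.3 and 5.38 CPM. Both were thus high while globin RNA was building up and low where its share was highest. Klf1 and Gata1 are among the markers that define the erythroid set, and Myb is an early marker of the score. Bcl11a, a repressor of embryonic and fetal globin genes, had 445, 290, 49.5, 5.98 and 6.73 CPM and was low earlier, by range 3. Nfe2, a factor that acts through the distant control region of the beta locus, was the 1 within 2-fold: it had 39.6 CPM in range 1, 309 in range 4 and 61.9 in range 5.

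Of 10 listed genes of chain balance and clearance, 7 could be compared: 2 were higher, 3 lower and 2 within 2-fold, with a median log2 ratio of -0.47, beside a background of 4.52% higher and 87.9% lower and a median of all genes of -3.39. Ube2o, an enzyme that marks unassembled proteins for destruction in reticulocytes, had 18.9, 41.2, 140, 541 and 366 CPM, a log2 ratio of 4.28. Xpo7, a nuclear export factor, had 14.6, 19.7, 257, 2967 and 662 CPM, but it is one of the late markers of the score, so its place is fixed by the ranges. Eif2ak1, the kinase that slows globin synthesis when heme is short, had 76.8, 124, 219, 305 and 80.7 CPM and was within 2-fold between the ends. Prdx2, an abundant red cell peroxidase, had 1415, 2387, 2996, 2121 and 1021 CPM and was also within 2-fold. Hspa8, a general chaperone, had 2663 CPM in range 1 and 221 in range 5, and was lower, as were Usp15 and Atf4. These calls are on the CPM scale. Per UMI outside the globin and mitochondrial genes, the log2 ratio was -1.28 for Hspa8, 0.12 for Atf4 and 1.12 for Usp15. On that scale it was 1.84 for Prdx2, 2.38 for Eif2ak1, 6.59 for Ube2o and 7.81 for Xpo7.

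The genes whose pattern was most like that of the summed globins were sought over 17 groups of at least 50 barcodes from both libraries, among 11401 genes. Alas2, which starts heme synthesis in red cell precursors, had the highest Pearson r on log2(CPM + 10), at 0.883. Among the next were Fam213a, Slc4a1, Cdr2, Fam46c, Apol11b, Cd24a, Fech and Ube2l6, the lowest of them at 0.753. Alas2, Slc4a1, Fam46c and Ube2l6 are late markers of the score. The groups share libraries and may share free RNA, so this is a description only. The 4 globins themselves had r of at least 0.986 with their sum.

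Outside the erythroid lineage, globin UMIs were in nearly every barcode of library 2. All 127 lymphocyte-like barcodes of library 2 (B-like, T-like or natural killer-like), which should not make globin, had at least 1, with a median of 20 globin UMIs per barcode and a median depth of 2437 UMIs. In Kupffer-like barcodes it was 4023 of 4025, with a median depth of 6014 UMIs. The share of barcodes with a globin UMI therefore does not tell these lineages apart in this library and is not read as expression. Where these UMIs come from was not tested. Among library 1 barcodes that were not shared, 5 of 64 lymphocyte-like barcodes (7.81%, 2.59% to 17.3%) and 155 of 1696 Kupffer-like barcodes (9.14%, 7.81% to 10.6%) had a globin UMI.

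The number of globin UMIs had a common low level across the lineages of library 2 whatever their depth. The 5th percentile was between 6 and 10 UMIs per barcode in all 9 lineages. The median was between 16 and 22 UMIs in the 8 lineages other than Kupffer-like, whose median depths ran from 1351 UMIs in hepatocyte-like to 8535 in dendritic-like barcodes. Kupffer-like barcodes stood apart with a median of 52 globin UMIs and a 95th percentile of 2297.

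As a share of each barcode's UMIs, the order from the top was Kupffer-like with a median of 1.504%, hepatocyte-like 1.26%, stellate-like 1.20%, B-like 0.850%, T or natural killer-like 0.773%, neutrophil-like 0.529%, endothelial-like 0.514%, monocyte-like 0.441% and dendritic-like 0.296%. The interval of Kupffer-like barcodes (1.42% to 1.58%) lay just above that of hepatocyte-like ones (1.02% to 1.41%), but overlapped that of stellate-like ones (1.04% to 1.43%), and all other neighbours in this order had overlapping intervals. Kupffer-like barcodes overlapped with erythroid range 1, whose median of 1.31% (1.01% to 1.87%) lies beside theirs. Among the 8 lineages other than Kupffer-like, depth moved with this order, the shallowest at the top and the deepest at the end, whereas Kupffer-like barcodes had a median of 6014 UMIs; its part was not tested. With each barcode thinned to 1000 UMIs, the median was 12 globin UMIs in Kupffer-like (3432 barcodes, 593 too shallow), 12 in hepatocyte-like and stellate-like, 8 in lymphocyte-like (125 barcodes, 2 too shallow) and 3 in dendritic-like barcodes.

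**Figure D3:**
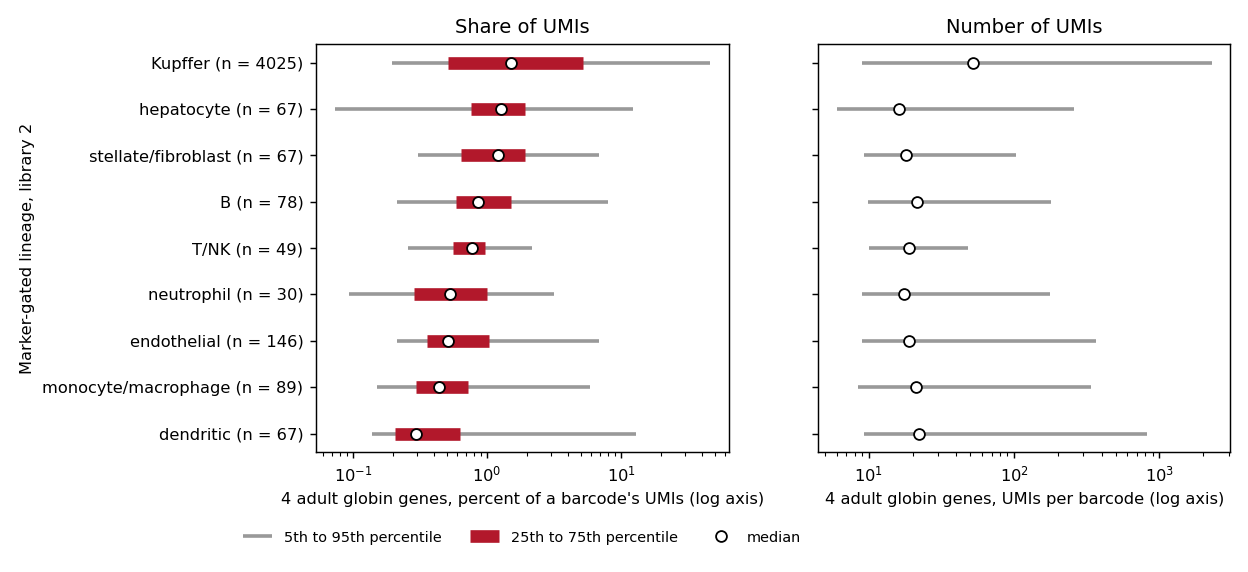
Adult globin in single barcodes of 9 lineages of library 2, as percent of a barcode's UMIs (left) and as number of UMIs (right), both on log axes, with medians (circles), the 25th to 75th percentile (thick bars, left panel) and the 5th to 95th percentile (thin bars). Number medians lie between 16 and 22 UMIs except in Kupffer-like barcodes, at 52, which also have the longest upper tail.

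Barcodes with much globin were most frequent among the Kupffer-like ones. At least 10% globin UMIs were found in 716 of 4025 Kupffer-like barcodes of library 2 (17.8%, 16.6% to 19.0%) and in 4 of 127 lymphocyte-like ones (3.15%, 0.865% to 7.87%). In the other lineages the share was 7.46% of hepatocyte-like (5 barcodes), 5.97% of dendritic-like (4), 4.79% of endothelial-like (7), 4.48% of stellate-like (3), 2.25% of monocyte-like (2) and 0 of 30 neutrophil-like barcodes, where 0 allows up to 11.6%. After thinning, the variance of globin UMIs over the mean was 311 in Kupffer-like barcodes, 249 in endothelial-like and 7.11 in T or natural killer-like ones, where 1 is the value of pure counting.

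Within the Kupffer-like barcodes of library 2, globin share did not follow depth in a single direction. The 979 barcodes below 0.5% had a median of 8085 UMIs, the 713 from 1% to 2% had 1780, the 248 from 10% to 20% had 10102, and the 253 at 40% or more had 1721. The last class had a median of 493 UMIs outside the globin and mitochondrial genes but held 26.5% of the lineage's globin. Its Kupffer markers were at 243 UMIs per 10000 of those, near the 291 of the class below 0.5%. The lineage rule asked for at least 150 in every barcode, so this likeness was in part set in advance. Erythroid markers were at 50.4 in the class at 40% or more, against 0 in the class below 0.5%. The value of 50.4 is above the erythroid minimum of 20, but that set also asks for 3 distinct markers. Shallow barcodes can miss that number, and whether these droplets also held erythroid cells was not tested. The 20% to 40% class, with a median of 4237 UMIs outside the globin and mitochondrial genes, had erythroid markers at 13.9. With at least 1000 such UMIs asked of every barcode, the Kupffer-like median was 1.03% and the lymphocyte-like 0.786%, and under a stricter lineage rule the Kupffer-like median was 0.9499%.

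Among barcodes with no lineage, most of the globin stood in those with the highest globin share. The 279 of the 1114 in library 2 that had at least 40% globin UMIs held 86.8% of the globin in this group and had a median of 422 UMIs outside the globin and mitochondrial genes. Their Kupffer markers had a median of 173 per 10000 such UMIs, and their erythroid markers a median of 62.4. Each median is above the UMI minimum of its lineage rule, but both rules also ask for distinct markers. Which cells these droplets held was not tested. The 246 barcodes that met the Kupffer and erythroid sets together had a median globin share of 38.4%, an alpha to beta ratio of 0.846 and an Hbb-bs to Hbb-bt ratio of 4.29, near range 5 in both. Doublet droplets were not removed.

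In several lineages outside the erythroid one, the alpha to beta ratio was near that of range 5. Alpha to beta was 0.864 in Kupffer-like (0.862 to 0.867), 0.863 in endothelial-like (0.840 to 0.886), 0.880 in B-like (0.847 to 0.914) and 0.860 in T or natural killer-like barcodes of library 2 (0.763 to 0.969), beside 0.865 in range 5. Monocyte-like barcodes, at 0.792 (0.757 to 0.829), neutrophil-like ones, at 0.770 (0.692 to 0.856), and dendritic-like ones, at 0.645 (0.622 to 0.668), were lower, the last near the 0.649 of range 2. In dendritic-like barcodes 10% of the barcodes held 83.9% of the globin UMIs. In endothelial-like ones it was 84.5% and in B-like ones 83.4%, so the ratios of dendritic-like, endothelial-like and B-like barcodes rest on few droplets. It was 73.8% in monocyte-like, 65.2% in Kupffer-like, 56.8% in neutrophil-like and 29.2% in T or natural killer-like barcodes.

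Hbb-bs per Hbb-bt went beyond the erythroid ranges. It was 4.97 in Kupffer-like (4.94 to 4.99), 4.36 in endothelial-like (4.17 to 4.57) and 6.18 in B-like barcodes (5.73 to 6.67), against 4.07 in range 5 (4.03 to 4.10). The endothelial-like and B-like values rest on few droplets here too. The lowest interval among the 9 lineages was that of T or natural killer-like barcodes, from 3.62 to 5.54, which includes the value of range 5, as do those of stellate-like and hepatocyte-like barcodes. Within the Kupffer-like barcodes, the ratio was between 4.25 and 5.11 in all 8 classes of globin share. Hba-a1 per Hba-a2 was 3.67 in Kupffer-like barcodes and between 3.27 and 4.12 in the 9 lineages, near the 3.71 of range 5.

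Other erythroid transcripts, set against globin, gave a further comparison. Slc4a1, Alas2, Bpgm and Fech were higher in CPM in range 5 than in range 1 and Car2 was lower, but Slc4a1, Alas2 and Bpgm are late markers of the score. Slc4a1, the anion exchanger of the red cell membrane, had 6.96, 8.83, 5.72, 4.19 and 1.11 UMIs per 1000 globin UMIs from range 1 to range 5, and 0.804 (0.762 to 0.847) in Kupffer-like barcodes. Car2 had 200, 25.7, 8.05, 4.34 and 0.869, and 0.617 (0.580 to 0.655) in Kupffer-like barcodes. Both were lower per globin UMI in Kupffer-like barcodes than in range 5, but Kupffer-like barcodes leave out those that also met the erythroid set. Slc4a1 and Alas2, but not Car2, are markers of that set, so their values here were in part set by the rule. The 246 that met both sets had 1.58 for Slc4a1 and 1.38 for Car2, above range 5. Alas2 was different, at 1.81 in range 1, between 2.33 and 2.75 in ranges 2 to 5, and 2.45 (2.37 to 2.52) in Kupffer-like barcodes. Fech, the last enzyme of heme synthesis, which cells of other lineages also express, had 13.4 in range 1, 0.974 in range 5 and 1.53 in Kupffer-like barcodes. Lymphocyte-like barcodes had 1.84 for Slc4a1, 2.85 for Alas2 and 1.68 for Car2.

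**Figure D4:**
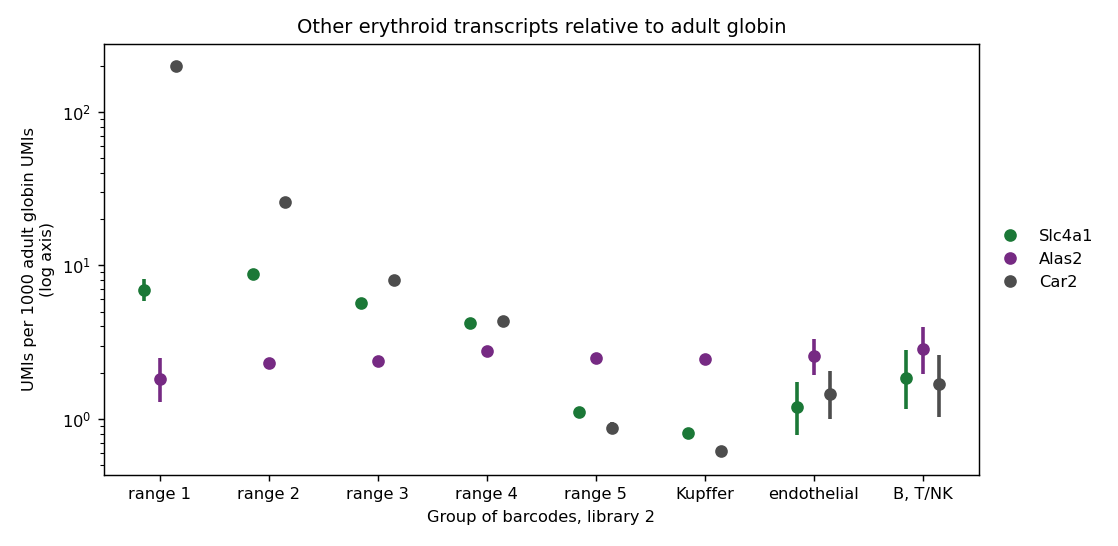
UMIs of Slc4a1, Alas2 and Car2 per 1000 adult globin UMIs (log axis) in the erythroid ranges, Kupffer-like, endothelial-like and lymphocyte-like (B, T/NK) barcodes of library 2, with exact 95% Poisson intervals. Slc4a1 and Car2 end lowest in range 5 among the ranges and are lower still in Kupffer-like barcodes, while Alas2 stays between 1.81 and 2.85.

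Between the libraries, globin was higher in library 2 in every lineage that could be compared. In Kupffer-like barcodes without the shared ones, the 4 genes together had 61062 CPM in library 2 and 229 CPM in library 1, a ratio of 267 (lower bound of the interval 256). With the shared barcodes it was 61028 and 1885 CPM, a ratio of 32.4. The shared barcodes were 25 of those of library 2 and 475 of those of library 1. On the log2 scale, 5.02 with them became 8.06 without them, 7.17 with at least 500 genes per barcode and 3.94 with at most 10% mitochondrial UMIs, so the size of the ratio depends on which barcodes of library 1 are kept.

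Gene by gene, without the shared barcodes, Hba-a1 had 22246 CPM in Kupffer-like barcodes of library 2 and 92.9 CPM in library 1, a log2 ratio of 7.90. Hba-a2 had 6060 and 28.5 CPM (7.73). Hbb-bs had 27265 and 96.3 CPM (8.15), and Hbb-bt had 5490 and 11.0 CPM (8.96). All 4 were at least 2-fold higher in library 2, as were 3.16% of the 3508 genes compared, and they ranked 3, 4, 2 and 1. With the shared barcodes the log2 ratios were 5.19, 5.17, 4.86 and 5.03, against a background of 2.85%. Library 1 had an alpha to beta ratio of 1.13 (1.04 to 1.23) and an Hbb-bs to Hbb-bt ratio of 8.72 (7.14 to 10.7) in these barcodes, both above those of library 2, from 2238 globin UMIs. Only 6 of the 1696 barcodes had at least 100 globin UMIs, and 1 of them held 796. The chi-square per degree of freedom of alpha to beta among these 6 was 15.6, so the intervals understate the spread.

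In monocyte-like barcodes the 4 genes had 7557 UMIs in library 2 and 7 in library 1, and all 4 were called higher beside 2.97% of the genes compared. There, Hba-a2 and Hbb-bt had 0 UMIs in library 1. Taking 3 counts in the library 1 group as the floor, they were 288-fold and 286-fold higher, with intervals from 98.2 and 97.5. Endothelial-like barcodes had 22722 globin UMIs in library 2 and 20 in library 1, again with all 4 higher beside 5.05% of the genes compared. Hbb-bt had 0 of those 20 and was 1015-fold higher at the same floor, with an interval from 347. B-like barcodes without the shared ones had 10813 UMIs in library 2 and 15 in library 1, and T or natural killer-like ones 1118 and 5. Hepatocyte-like barcodes had 4952 UMIs in library 2 and 0 in 13 barcodes of library 1, which is 381-fold at the same floor, with an interval from 130.

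**Figure D5:**
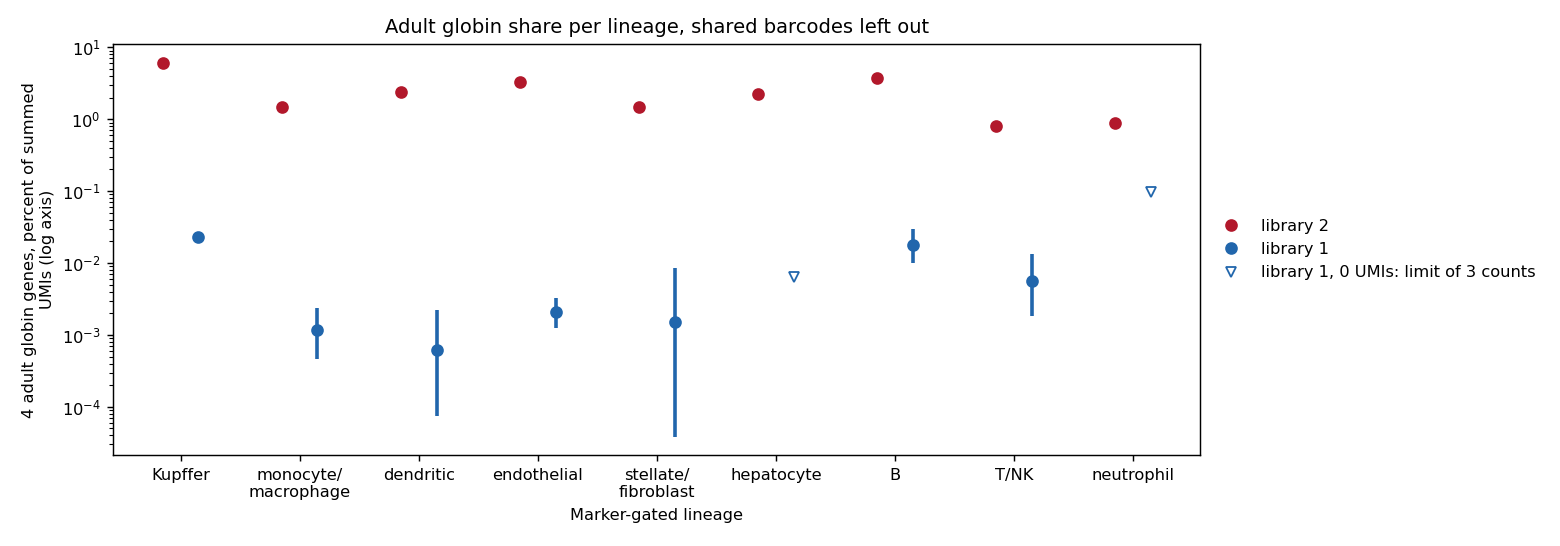
The 4 adult globin genes as percent of summed UMIs (log axis) in 9 marker-gated lineages, library 2 (red) left of library 1 (blue), without the shared barcodes; bars are exact 95% Poisson intervals and open triangles mark 0 UMIs at the limit of 3 counts. Library 2 is above library 1, or above its limit, in all 9 lineages, with 61062 against 229 CPM in Kupffer-like barcodes.

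Outside the shared barcodes, library 1 had most of its globin in very few droplets. Of its 2673 kept barcodes that were not shared, 222 (8.31%) had a globin UMI, and the 15 with at least 1% globin held 97.4% of the 15046 globin UMIs. Of these 15, 9 were Kupffer-like, 4 had no lineage, 1 was mixed and 1 was erythroid-like. The 3 barcodes at 40% or more, the erythroid-like one and 2 with no lineage, held 12190 of the UMIs. The erythroid-like one alone had 6903 globin UMIs among 9308, an alpha to beta ratio of 1.01 (0.963 to 1.06) and an Hbb-bs to Hbb-bt ratio of 12.3 (10.8 to 14.0), the latter above every group of library 2.

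The shared barcodes also showed how far a chain ratio can differ between the libraries for the same barcode. The kept ones had 3.45% as many globin UMIs in library 1 as in library 2, and 3.89% as many UMIs in all. Their alpha to beta ratio was 0.746 in library 2 and 0.615 in library 1. The shared barcodes that were erythroid-like in library 1 had 0.646 in library 2 and 0.546 in library 1. These differences are about as large as the largest steps between neighbouring erythroid ranges, and what brings them about was not tested.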

How the data were processed

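The authors deposited 1 matrix of raw UMI counts per gene and barcode for both libraries, made with Cell Ranger 3.0.1 on GRCm38.p5, with R 3.6.1 also listed, per the submitters' processing notes. How reads that match several genes were handled, and on which annotation, is not given in the sources used here. Counts were used as deposited in python 3.11.15 with numpy 2.4.6 and scipy 1.17.1. Barcodes needed 200 or more genes and no more than 20% mitochondrial UMIs, and no doublet caller was run. A lineage needed a minimum number of its own markers and of their UMIs per 10000 UMIs outside the globin and mitochondrial genes (5 and 150 for Kupffer, 3 and 20 for erythroid). Counts were summed per lineage, erythroid range and library. CPM carry exact Poisson, shares of barcodes Clopper-Pearson and ratios conditional exact intervals. Intervals of medians were read from the ranked barcodes with the binomial distribution. Groups were compared over genes with at least 50 CPM and 30 UMIs in either group, at a 2-fold limit. The gene-by-gene ratios between groups and the likeness measure were tested on simulated counts that vary by counting alone. Chain ratios, medians and the spread over barcodes were not simulated. The genes named were the members, genes of 4 lists and those among the 10 most like the summed members, except items not reported here. Members, lists, markers and the rule for named genes were chosen with earlier results of these data known. Total depth was 56947765 UMIs in library 2 and 33099802 in library 1, and their number limits precision beside the single mouse per genotype. Alternatives were other mitochondrial and gene limits, a stricter lineage rule, another denominator, thinning and leaving out shared barcodes.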

Additional observations from a re-analysis of the deposited data

Results flagged for a closer look

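The barcodes left out for over 20% mitochondrial UMIs also held globin. In library 2 these 2783 barcodes had 11.9% globin UMIs (1328284 UMIs, 19.6% of all globin in the library), close to the share of the kept barcodes, with a median of 2.47% per barcode. In library 1, 5384 such barcodes had 0.0491% (9304 UMIs), with a median of 0. They were singled out because they lie outside the values reported above and hold more than the 3 counts that a total of 0 allows.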

How the results depend on the processing

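Of 50 recomputed values, 19 stayed within the interval of the reported value and 31 did not. None of the log2 ratios among them changed sign, while chain ratios and medians have no sign that could change. Of the recomputed values of single genes, 12 stayed within it and 48 did not, again with none reversed. The log2 ratio of summed globins in Kupffer-like barcodes, library 2 over library 1, was 5.02 as reported with shared barcodes, 8.06 without them, 7.17 with at least 500 genes, 3.94 and 5.87 with at most 10% and 40% mitochondrial UMIs, 5.62 under the stricter lineage rule and 5.09 per UMI outside the globin and mitochondrial genes. The log2 ratio of range 5 over range 1 in library 2, 5.83 as reported, was 5.96 and 5.68 at the 10% and 40% limits, 5.23 under the stricter rule and 8.14 per such UMI. Alpha to beta at the 10% limit was 0.520 in range 1, 0.835 in range 5 and 0.834 in Kupffer-like barcodes; range 5 and Kupffer-like barcodes had 0.887 and 0.889 at the 40% limit and 0.856 and 0.859 under the stricter rule. The median globin share in Kupffer-like barcodes of library 2 was 1.15% and 1.64% at the 10% and 40% limits, 1.26% with at least 500 genes, 0.9499% under the stricter rule and 1.3% after thinning, where the separate random draw used for the report gave a median of 12 UMIs per 1000; in lymphocyte-like barcodes it was 0.671% at the 10% limit. Alternatives chosen after seeing the data were a minimum of 1000 UMIs outside the globin and mitochondrial genes, which gave log2 ratios of 7.79 between libraries and 5.87 between ranges, alpha to beta of 0.876 in range 5 and 0.861 in Kupffer-like barcodes and a Kupffer-like median of 1.03%, and ranges without Slc4a1 and Alas2, which gave alpha to beta of 0.602 in range 1 and 0.879 in range 5 and a log2 ratio of 4.64. The causes were not tested. In library 1 the few globin UMIs outside shared barcodes limit the chain ratios. No paired analysis was possible because there was 1 mouse per genotype and no barcode ending could be tied to a mouse.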
